A study of Brassica napus with 12 samples.

Results

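The first true leaf of 2 oilseed rape cultivars, Avatar and Zhongshuang 9 (Brassica napus), was compared for how each gene responded to full submergence, to ask which genes responded differently. All 12 libraries of the series entered: 3 of Avatar in air, 3 of Avatar under submergence, 3 of Zhongshuang 9 in air and 3 of Zhongshuang 9 under submergence. Every leaf came from a 16-day-old seedling grown in soil with 8 h of light a day, and treatment lasted 24 h, in tap water that covered the whole plant or in a similar box without water. For each gene the difference of the responses (the interaction) was the log2 fold change of submergence over air in Zhongshuang 9 minus the same fold change in Avatar. A positive value means a response that was higher in Zhongshuang 9, that is a stronger rise or a weaker fall, and a negative value the reverse.

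As background, a submerged leaf exchanges gas slowly, so oxygen and carbon dioxide run short and the gaseous hormone ethylene builds up in the tissue. Plants are known to answer by shifting energy metabolism toward glycolysis and fermentation, by lowering costly processes such as photosynthesis and protein synthesis, and in some species by elongating toward the surface. Lines of a species can differ in how far they run these programmes, and an interaction between line and treatment is the form in which such a difference appears in expression data. Brassica napus carries an A and a C subgenome, and many genes exist as closely related A and C copies. The identifiers used here begin with Bna and name the chromosome (A01 to A10, C01 to C09) and a gene number along it; nn in place of the chromosome number marks a gene not placed on a chromosome.

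The libraries held 24389813 to 35873196 estimated counts for 101040 coding sequences, of which 55674 had enough counts to test. The files do not pair identifiers with gene names, and a RefSeq table for the Da-Ae assembly matched 29 of the genes called below without giving any of them a name besides the identifier. Functions therefore are not stated, and the leaf label was not checked against marker genes. Long stretches of neighbouring genes were silent or lowered in 5 libraries: Avatar air replicates 3 and 4, Avatar submergence replicate 1, Zhongshuang 9 air replicate 4 and Zhongshuang 9 submergence replicate 1. Silent stretches lay on C02 and C03 of Avatar air replicate 3 and on C02 of Zhongshuang 9 submergence replicate 1. Nothing in the labels says whether libraries come from separate sowings or from single plants, so p-values measure the spread between these samples, which may be technical.

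The difference of the responses passed the threshold (adjusted p under 0.05, edgeR quasi-likelihood test) in 694 genes, 1.25% of those tested. It was positive in 244 genes (0.438% of those tested) and negative in 450 (0.808%). The size of the difference among the called genes ranged from 0.71 to 9.93 on the log2 scale with a median of 1.73, or 3.33-fold, and 643 genes differed by at least 1 and 285 by at least 2. The standard error of the difference had a median of 0.45 over all tested genes and of 0.30 over the called genes. The standard error of the response in a single cultivar had a median of 0.32, in Avatar and in Zhongshuang 9 alike. At an unadjusted p under 0.05 there were 8961 genes, 16.1% of those tested. The edge of the list was not a break in the data. The last gene inside and the first outside had adjusted p of 0.049998 and 0.050019 and sizes of 1.78 and 1.81, and the number of genes was 75 at an adjusted p of 0.01 and 1714 at 0.1.

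The called genes were divided by what each cultivar did. Over all tested genes, submergence changed 40% in Avatar (21.6% rose, 18.4% fell) and 44.5% in Zhongshuang 9 (22.5% rose, 22.0% fell). Of the 694 genes, 482 (69.5%) passed in Avatar and 603 (86.9%) in Zhongshuang 9. These contrasts use the same libraries as the interaction, so the division describes the genes and adds no independent support. In 295 genes (42.5%) both cultivars changed in the same direction by different amounts, against 30.0% of all tested genes that rose in both or fell in both. Only 1 cultivar passed the threshold in a further 43.7%, Zhongshuang 9 in 212 genes (30.5%, against 14.3% of all tested genes) and Avatar in 91 (13.1%, against 9.74%). In 96 genes (13.8%) the cultivars changed in opposite directions, against 0.23% of all tested genes. Each called gene passed the threshold in at least 1 cultivar. The interaction called far fewer genes than the single responses and so needed a smaller p, which largely sets this outcome.

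**Figure D1:**
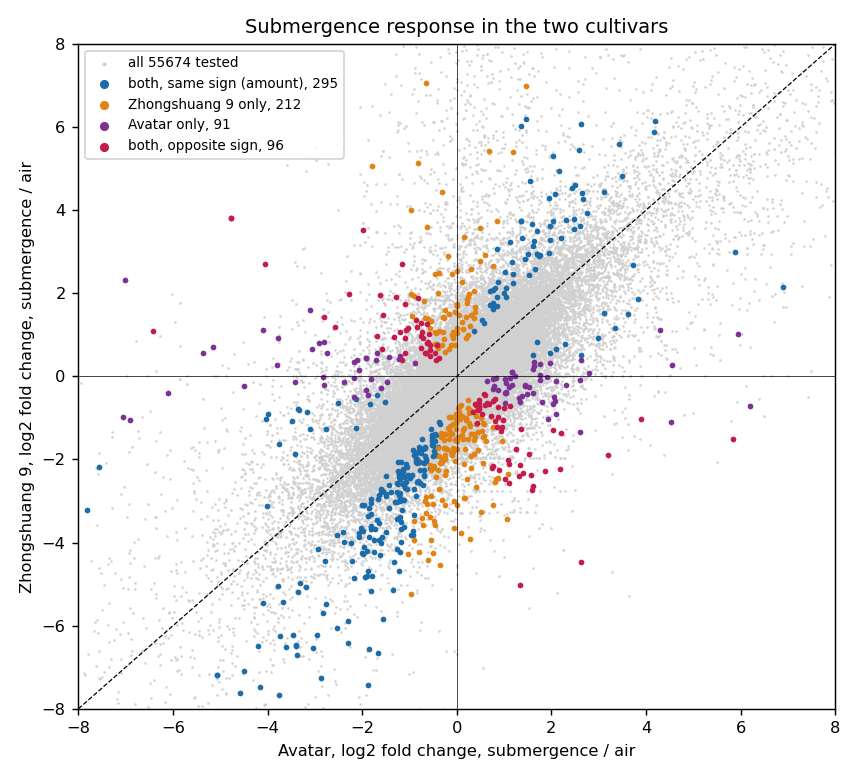
Each point is a gene, placed by its log2 fold change of submergence over air in Avatar (horizontal) and in Zhongshuang 9 (vertical); the 694 called genes are coloured by kind, and the dashed line marks equal responses. Genes of the same sign lie mostly farther from 0 in Zhongshuang 9 (blue, lower left and upper right), and the 96 genes of opposite sign lie in the other corners; 13 called and 337 tested genes lie beyond the axis limits of 8.

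Differences of amount were mostly a larger change in Zhongshuang 9. Of the 295 genes, 191 fell in both cultivars and fell further in Zhongshuang 9, and 68 rose in both and rose further there. The reverse was found in 36 genes, 21 that fell further and 15 that rose further in Avatar. Over all tested genes of any kind, the larger change was in Zhongshuang 9 in 55.6%. That share was not taken for the tested genes that changed in the same direction in both cultivars. The balance of positive and negative differences also depended on the scaling, as given below. Where Zhongshuang 9 changed more, the size of the response had a median of 1.39 in Avatar and 3.10 in Zhongshuang 9 on the log2 scale. Where Avatar changed more, the medians were 3.34 in Avatar and 1.13 in Zhongshuang 9. For the 191 genes with the deeper fall, the cultivars differed in air in 50, with Zhongshuang 9 higher in 31 and lower in 19. The median level of the 191 genes in air was 15.9 to 16.9 CPM (counts scaled to a common library size with TMM factors) over the Avatar libraries and 17.8 to 21.3 CPM over the Zhongshuang 9 libraries. Under submergence it was 5.64, 6.11 and 6.52 CPM in Avatar replicates 1, 3 and 4 and 1.86, 2.25 and 2.32 CPM in Zhongshuang 9. For the 68 genes with the stronger rise in Zhongshuang 9, the median level in air was 6.85 to 7.63 CPM in Avatar and 4.07 to 4.96 CPM in Zhongshuang 9, and under submergence 21.4 to 25.1 CPM and 32.0 to 37.5 CPM.

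Among the genes of different amount, BnaC07g34180D had the smallest p of those with a positive difference. Its level in Avatar was 88.4, 115 and 100.3 CPM in air (replicates 1, 3 and 4) and 199.7, 273 and 310.0 CPM under submergence. In Zhongshuang 9 it stood at 26.1, 27.99 and 27.7 CPM in air and at 312, 370.1 and 406 CPM under submergence. The groups of each cultivar did not overlap, and Zhongshuang 9 in air was the lowest of the 4 groups. It rose by 1.37 ± 0.17 in Avatar and by 3.73 ± 0.19 in Zhongshuang 9 (log2 scale, ± SE), a difference of 2.37 ± 0.25 (edgeR adjusted p = 0.00522). BnaA08g25120D had the smallest p of those with a negative difference, at 20.8, 19.7 and 17.9 CPM in Avatar air and 9.65, 11.1 and 10.1 CPM in Avatar under submergence. Zhongshuang 9 was at 4.35, 5.54 and 6.30 CPM in air and at 0.377, 0.461 and 0.374 CPM under submergence. All 4 groups were apart, in the order Avatar air, Avatar submergence, Zhongshuang 9 air and Zhongshuang 9 submergence. The fall was 0.92 ± 0.15 in Avatar against 3.73 ± 0.18 in Zhongshuang 9, a difference of -2.80 ± 0.23 (edgeR adjusted p = 0.00168).

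Among the called genes, a response in Zhongshuang 9 alone was more often a fall, in 139 genes against 73 that rose. The same split was not taken over all tested genes with a response in Zhongshuang 9 alone. The balance of positive and negative differences depended on the scaling, as given below. For the 139 genes the median level stayed between 5.17 and 6.11 CPM in the 6 Avatar libraries and was 6.82 to 7.30 CPM in Zhongshuang 9 air and 1.86 to 2.47 CPM in Zhongshuang 9 submergence. For the 73 genes it lay between 8.31 and 10.8 CPM in Avatar, at 4.13 to 4.40 CPM in Zhongshuang 9 air and at 13.5 to 15.5 CPM under submergence. BnaCnng48230D, the gene of smallest p with a fall, stood at 19.0, 21.9 and 21.9 CPM in Avatar air, at 18.3, 26.9 and 28.1 CPM in Avatar submergence and at 18.2, 19.8 and 20.1 CPM in Zhongshuang 9 air. It was at 3.34, 3.54 and 3.63 CPM in Zhongshuang 9 submergence. Those 3 libraries stood apart from the other 9, which overlapped. The difference was -2.69 ± 0.23 (edgeR adjusted p = 0.00168), with a response of 0.22 ± 0.16 in Avatar (edgeR adjusted p = 0.296) and of -2.47 ± 0.17 in Zhongshuang 9. BnaC01g41850D, the gene of smallest p with a rise, was at 18.3, 17.6 and 18.5 CPM in Avatar air, at 20.3, 21.7 and 24.99 CPM in Avatar submergence and at 23.2, 20.4 and 20.4 CPM in Zhongshuang 9 submergence. It was at 2.44, 3.84 and 4.34 CPM in Zhongshuang 9 air. Here the group that stood apart was Zhongshuang 9 in air, and under submergence the cultivars overlapped. The difference was 2.29 ± 0.26 (edgeR adjusted p = 0.00705).

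A response in Avatar alone was a rise in 52 of the called genes and a fall in 39. The same split was not taken over all tested genes with a response in Avatar alone. For the 52 genes the median level went from 2.35 to 2.55 CPM in the Avatar air libraries to 7.22 to 8.93 CPM under submergence, and lay between 3.83 and 5.37 CPM in the 6 Zhongshuang 9 libraries. For the 39 genes it went from 4.15 to 5.14 CPM down to 0.517 to 1.03 CPM in Avatar and lay between 1.39 and 1.83 CPM in Zhongshuang 9. BnaC03g21170D, with the smallest p of the rises, was at 1.24, 0.991 and 1.12 CPM in Avatar air and at 7.40, 7.74 and 5.36 CPM in Avatar submergence. In Zhongshuang 9 it was at 19.0, 17.8 and 17.6 CPM in air and at 18.7, 15.6 and 16.6 CPM under submergence. Avatar rose but stayed below every Zhongshuang 9 library. The difference was -2.71 ± 0.23 (edgeR adjusted p = 0.00168). BnaCnng28130D had the smallest p of the falls and of all 55674 genes. It was at 2.21, 3.85 and 2.88 CPM in Avatar air and at 0.0939, 0.0571 and 0.0528 CPM in Avatar submergence, the latter resting on 8 counts in the 3 libraries together. In Zhongshuang 9 its response of 0.55 ± 0.21 missed the threshold (edgeR adjusted p = 0.0564), so the label of a response in Avatar alone rests on that margin.

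Changes of opposite sign were found in 53 genes that rose in Avatar and fell in Zhongshuang 9 and in 43 that did the reverse. In 38 of the 96 genes both responses were at least 2-fold. The 53 genes had median responses of 0.94 in Avatar and -1.22 in Zhongshuang 9, and the 43 genes of -1.02 and 1.06 (log2 fold change). The median level of the 53 genes was 4.49 to 5.62 CPM over the Avatar air libraries and 8.42 to 9.17 CPM over those under submergence, against 5.89 to 6.71 CPM and 2.34 to 2.99 CPM in Zhongshuang 9. That of the 43 genes was 6.33 to 8.80 CPM and 3.32 to 3.71 CPM in Avatar, against 2.77 to 3.15 CPM and 6.89 to 8.09 CPM in Zhongshuang 9. BnaA01g30410D, the gene of smallest p with a negative difference, was at 2.62, 2.67 and 2.50 CPM in Avatar air and at 6.53, 6.09 and 5.99 CPM in Avatar submergence. In Zhongshuang 9 it was at 17.4, 22.6 and 23.3 CPM in air and at 5.98, 7.41 and 5.61 CPM under submergence. The cultivars were far apart in air and overlapped under submergence. BnaC01g19760D, its counterpart with a positive difference, was at 15.8, 17.0 and 17.9 CPM in Avatar air and at 7.63, 8.49 and 7.71 CPM in Avatar submergence. Zhongshuang 9 was at 10.4, 10.9 and 11.5 CPM in air and at 20.2, 23.7 and 18.7 CPM under submergence. The order of the cultivars was turned round by the treatment, with no overlap in either. The differences were -2.99 ± 0.22 and 2.02 ± 0.17 (edgeR adjusted p = 0.00129 and 0.00168).

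**Figure D2:**
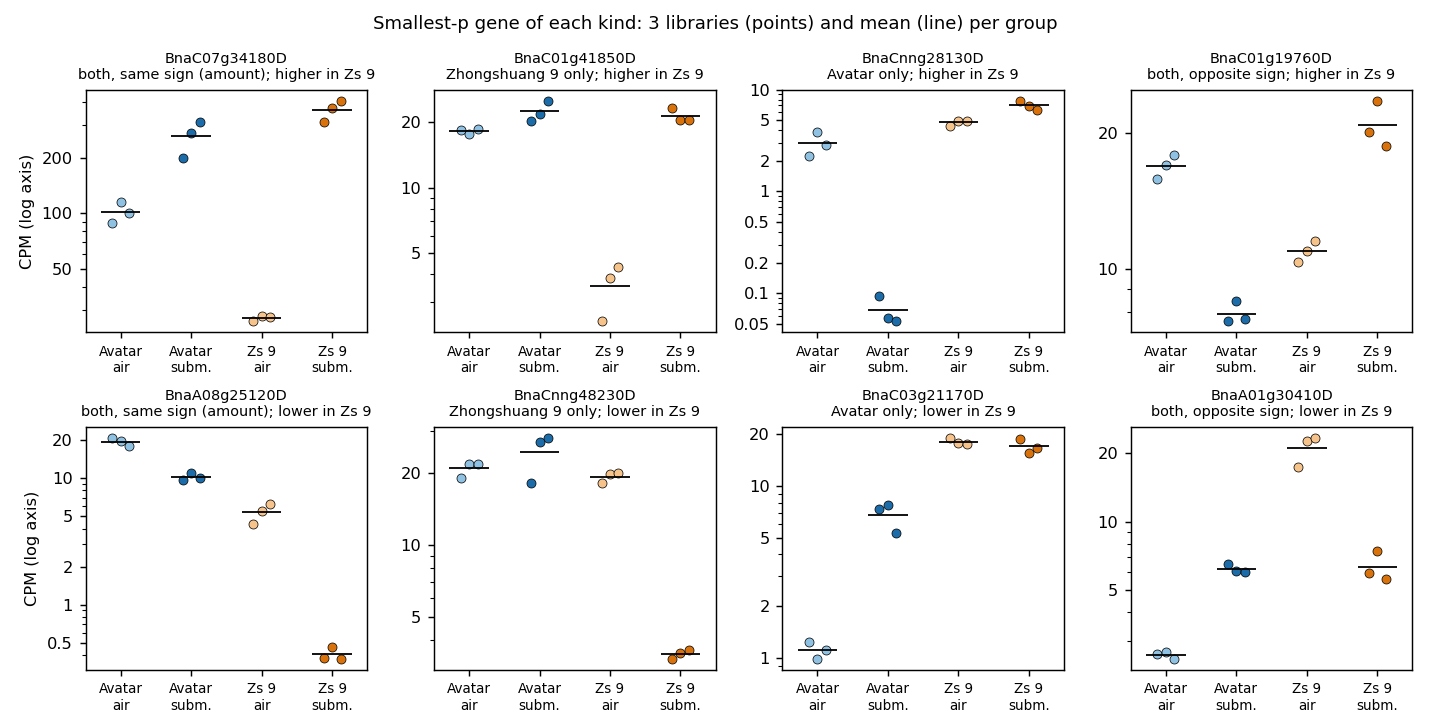
CPM on a log axis in each library (points) with the mean of 3 (line) for the gene of smallest p in each of the 8 combinations of kind and direction, among genes whose highest group reached 5 CPM; Zs 9 stands for Zhongshuang 9 and subm. for submergence. BnaCnng48230D is low in Zhongshuang 9 submergence alone (3.34 to 3.63 CPM), BnaC01g41850D in Zhongshuang 9 air alone (2.44 to 4.34 CPM).

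The group that stood out was most often Zhongshuang 9 under submergence. By mean log2 level it lay farthest from the median of the 4 groups in 404 of the 694 genes (58.2%, against 33.2% of all tested genes), on the low side in 305 and on the high side in 99. How the low and high sides divide over all tested genes was not counted. Zhongshuang 9 in air lay farthest in 128 genes (18.4%, against 22.0% of all tested genes). Avatar under submergence did so in 95 (13.7%, against 23.0%) and Avatar in air in 67 (9.65%, against 21.8%). All 3 libraries of Zhongshuang 9 submergence were below the other 9 libraries in 342 genes (49.3%; 8.5% of all tested genes) and above them in 130 (18.7%; 9.8%). All 3 of Zhongshuang 9 air were above the other 9 in 159 genes (22.9%; 7.46%). Some 1 group was apart from the other 9 libraries in 679 genes, against 43.9% of all tested genes. Since the genes were called on these libraries, such shares are a description of the list. In the same vein, the response was larger in size in Zhongshuang 9 in 532 genes (76.7%), against 55.6% of all tested genes. A deeper fall in Zhongshuang 9, with Avatar falling less or not passing the threshold, made up 330 genes (47.6%), and a stronger rise 141 (20.3%). How often such falls and rises occur over all tested genes was not counted. The preponderance of larger responses in Zhongshuang 9 depended on the libraries used. Without the 5 libraries with shifted stretches, which leaves a single Avatar air library, 51.3% of the genes then called had the larger response in Zhongshuang 9, against 53.3% of all genes tested in that fit. It was 57.9% without Avatar air replicate 1, against 53.5% of all genes, and between 68.4% and 81.2% with any of the other 11 libraries left out. The share of positive differences depended on the scaling, at 35.2% under TMM, 47.5% under RLE and 26.6% under library totals as scaling, which set the median difference of all genes at -0.09, 0.01 and -0.15.

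The called genes were found at every level of expression, but less often among weakly expressed genes. The share called was 0.39% of 12818 genes with a mean over the 4 groups under 1 CPM, 1.05% of 18269 genes at 1 to 5 CPM, 1.77% of 16281 genes at 5 to 20 CPM, 1.96% of 6997 genes at 20 to 100 CPM and 2.14% of 1309 genes over 100 CPM. The median standard error of the difference over the tested genes fell along the same bins, from 0.91 under 1 CPM to 0.46, 0.30, 0.26 and 0.27. The smallest difference that was called was 1.79, 1.01, 0.71, 0.71 and 0.85, so no difference near 1 on the log2 scale was called in genes under 1 CPM. Above 5 CPM the share called changed little, from 1.77% to 2.14%. Among the called genes the label of kind also went with the level. That label depends on which cultivars pass the threshold, and the standard error was larger at low levels. Shares of the kinds over all tested genes of each bin were not taken, so the part of detection in this relation was not tested. Differences of amount were 2.0% of the called genes under 1 CPM and 75.0% of those over 100 CPM, while responses in 1 cultivar alone were 68.0% and 21.4%. Opposite signs were 30.0% of the called genes under 1 CPM (15 of 50) and 14.2% at 5 to 20 CPM (41 of 288), and over 100 CPM there was 1 such gene of 28.

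**Figure D3:**
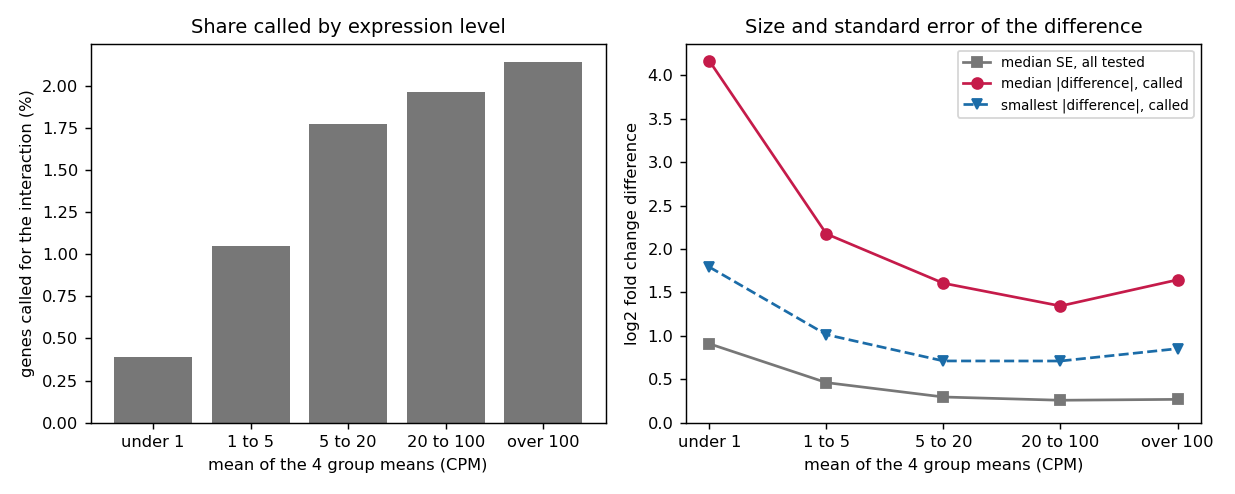
Left, the percentage of tested genes called for the difference of the responses in 5 bins of mean CPM; right, on the log2 scale, the median standard error over all tested genes and the median and smallest size of the difference among the called genes. The share called goes from 0.39% to 2.14% while the median standard error goes from 0.91 to 0.27.

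The genes of highest abundance per length (mean TPM over the 12 libraries, which also divides by coding length), chosen after their values were seen, were BnaC03g60170D for a negative difference and BnaUnng04590D for a positive one. BnaC03g60170D was at 3837, 2614 and 3066 CPM in Avatar air and 3086, 3705 and 3038 CPM in Zhongshuang 9 air, where the cultivars overlapped. Under submergence it was at 634, 723 and 915 CPM in Avatar and at 246, 225 and 200.7 CPM in Zhongshuang 9, with no overlap. It fell by 2.07 ± 0.19 in Avatar and by 3.87 ± 0.21 in Zhongshuang 9 (log2 scale, ± SE), with a difference of -1.81 ± 0.26 (edgeR adjusted p = 0.0151). BnaUnng04590D was at 94.9, 64.7 and 71.4 CPM in Avatar air and 99.6, 97.1 and 104 CPM in Avatar submergence. Zhongshuang 9 was at 64.7, 57.6 and 53.1 CPM in air and at 188, 167 and 159 CPM under submergence. It rose by 1.55 ± 0.15 in Zhongshuang 9, and its Avatar response of 0.38 ± 0.15 missed the threshold (edgeR adjusted p = 0.0673; adjusted p of the difference = 0.0319). The call of BnaUnng04590D was lost in 9 of 23 alternatives, with a highest adjusted p of 0.0993 by edgeR or limma. These were log2(TPM + 0.1) and the removal of Avatar air replicate 4, of Avatar submergence replicate 3 or 4, of any Zhongshuang 9 air library, or of Zhongshuang 9 submergence replicate 3 or 4. The call of BnaC03g60170D was lost without Zhongshuang 9 air replicate 3 (edgeR adjusted p = 0.0538).

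At the other end, 49 of the 694 genes had a group in which every library held at most 3 counts. Fitted sizes of such genes depend on how counts of 0 are treated. Their median size was 4.71, against 1.69 for the remaining 645 genes, whose largest was 6.91. Of the 96 genes of opposite sign, 9 were among the 49. In 14 genes a whole group had no count. The one with the highest level elsewhere, BnaC09g05580D (chosen after its values were seen), had no count in Avatar air and 10.6, 8.06 and 5.28 CPM in Avatar submergence, at least 72.9-fold higher with a floor of 3 counts per library. In Zhongshuang 9 it went from 0.225, 0.217 and 0.130 CPM in air to 1.93, 5.26 and 4.19 CPM under submergence, 19.9-fold in the means. It rose in both cultivars, and the call for the difference (edgeR adjusted p = 0.0466) was lost in 17 of 22 alternatives, among them the removal of any library but Zhongshuang 9 submergence replicate 1.

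The relation to the baseline difference in air was read by setting the difference between the cultivars (Zhongshuang 9 over Avatar) in air beside that under submergence. The interaction is the second minus the first, so both share libraries with it, and a gene with a large difference in air tends toward an interaction of the opposite sign by arithmetic. In air 299 of the 694 genes differed between the cultivars (43.1%; 17.1% of all tested genes), and under submergence 586 (84.4%; 24.5%). The most common pattern was no called difference in air and one under submergence, in 395 genes (56.9%; 13.5% of all tested genes). In these the size of the difference had a median of 0.28 in air and of 1.54 under submergence on the log2 scale. Zhongshuang 9 was the lower cultivar under submergence in 281 of them, with median levels of 10.2 CPM in Avatar air, 11.5 CPM in Zhongshuang 9 air, 6.17 CPM in Avatar submergence and 2.26 CPM in Zhongshuang 9 submergence. It was the higher one in 114, with 5.82, 6.25, 6.52 and 19.96 CPM in the same order. BnaCnng48230D and BnaC03g60170D above were of this pattern.

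A difference in air that was no longer called under submergence was found in 108 genes (15.6%; 6.07% of all tested genes), with a median size of 1.74 in air and 0.36 under submergence. In 57 of them Zhongshuang 9 was lower in air, with median levels of 8.83 CPM in Avatar air and 2.72 CPM in Zhongshuang 9 air against 8.38 and 8.33 CPM under submergence. In 51 it was higher in air, with 2.79 and 11.4 CPM in air against 5.07 and 3.83 CPM under submergence. BnaC01g41850D, BnaC07g34180D and BnaA01g30410D were of this pattern, so it included a gene of each of 3 kinds: a response in 1 cultivar, a difference of amount and a change of opposite sign. A difference that was not called is not equality. For BnaC07g34180D every Zhongshuang 9 library was above every Avatar library under submergence, the reverse of air. That difference of 0.48 ± 0.17 missed the threshold (edgeR adjusted p = 0.0683). The order of the cultivars was reversed, with a called difference in each treatment, in 91 genes (13.1%; 0.178% of all tested genes), with median sizes of 1.01 in air and 1.01 under submergence. Of these, 61 were higher in Zhongshuang 9 in air and 30 lower. In 100 genes (14.4%; 10.8%) the same cultivar was higher in both treatments, by a size that was larger under submergence in 66 of them. BnaC03g21170D and BnaA08g25120D belonged to these, the first with a difference that shrank from 4.02 ± 0.18 to 1.31 ± 0.16 and the second with one that grew from -1.85 ± 0.16 to -4.65 ± 0.19 (log2 fold change ± SE).

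**Figure D4:**
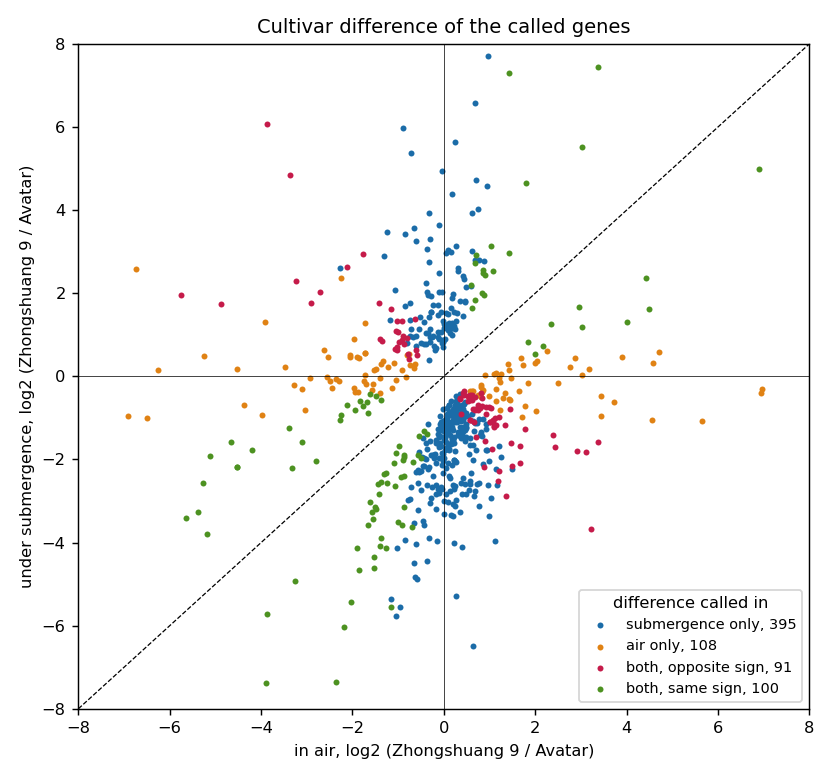
Each point is one of the 694 called genes, placed by the log2 ratio of Zhongshuang 9 over Avatar in air (horizontal) and under submergence (vertical), coloured by the treatment in which that ratio was called; genes on the dashed line would have no interaction, and 6 genes lie beyond the axis limits of 8. The 395 genes called under submergence alone form the vertical bands near 0 in air, more of them below 0 (281) than above (114).

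The kinds of response and the baseline patterns crossed each other. Of the 295 genes of different amount, 193 differed between the cultivars under submergence alone and 32 in air alone. Of the 96 genes of opposite sign, 42 differed under submergence alone, 18 in air alone, 17 in both with reversed order and 19 in both with the same order. Of the 212 genes that responded in Zhongshuang 9 alone, 118 differed under submergence alone and 34 in air alone, and of the 91 that responded in Avatar alone 42 and 24. Opposite signs thus were not the same as a reversed order of the cultivars.

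By position, 323 of the called genes belonged to subgenome A (1.23% of 26280 tested) and 369 to subgenome C (1.26% of 29235), so the subgenomes were called at nearly the same rate. The share called per chromosome was highest on A01 (2.03%, 45 of 2221 genes), C07 (1.75%) and A03 (1.64%) and lowest on C08 (0.364%, 10 of 2746 genes), where long stretches were lowered in Zhongshuang 9 air replicate 4 and Avatar submergence replicate 1. The share called was 0.389% of the 5142 genes inside a lowered or silent stretch and 1.33% of the other 50532. The latter include genes in raised stretches, on A02 and A03 of Avatar air replicate 3 and A02 of Zhongshuang 9 submergence replicate 1. None of the 15 called genes of A07 had a positive difference, while 36 of 60 did on A03, where a stretch was raised in Avatar air replicate 3. On C08 it was 8 of 10 and on C03 13 of 61. The median difference over all tested genes was -0.09 on A07, 0.10 on A03, 0.29 on C08 and -0.34 on C03. The share of positive differences over all tested genes of a chromosome was not taken. The part of the stretches in these shares was not tested. Of 614 called genes placed on a chromosome, 24 (3.91%) formed 12 pairs of neighbouring tested genes, 8 pairs with the same direction; 2.44% of all 49744 placed tested genes had a called neighbour. BnaA03g31050D and BnaA03g31060D, both at -2.11, had the same counts within 0.1% and cannot be told apart. Equal counts were sought among neighbouring pairs only. Outside these pairs, BnaA08g18680D and the unplaced BnaCnng54410D, both at 2.36, shared the same fitted values and group means. BnaA03g04190D and BnaA03g04200D, a pair named after their values were seen, had responses of -4.10 ± 0.71 and -3.49 ± 0.35 in Avatar (log2 scale, ± SE). In Avatar air BnaA03g04200D stood at 79.4, 201 and 135 CPM (replicates 1, 3 and 4), and it was at 6.91, 7.18 and 8.61 CPM in Zhongshuang 9 air. Both genes lie in the stretch raised in Avatar air replicate 3, their highest library, and each lost its call in 13 alternatives, the removal of that library among them.

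The number of called genes moved with the libraries and the test. With 1 library left out, between 109 (without Zhongshuang 9 air replicate 3) and 887 genes (without Zhongshuang 9 submergence replicate 1) were called. The count was 739 and 732 without replicate 1 of Avatar air or Avatar submergence, 195 and 187 without Avatar air replicates 3 and 4, and 219 and 310 without Avatar submergence replicates 3 and 4. It was 276 and 154 without Zhongshuang 9 air replicates 1 and 4, and 398 and 227 without Zhongshuang 9 submergence replicates 3 and 4. Of the 694 genes, 95 were called in each of these 12 fits, 235 in at least 6 and 39 in none. The 95 genes held 35 with a positive and 60 with a negative difference, 39 of different amount, 23 of opposite sign, 20 with a response in Zhongshuang 9 alone and 13 in Avatar alone. Their median size was 2.71. DESeq2 called 2934 genes, among them 683 of the 694. Over the 23 alternatives, 56 of the 694 genes were called each time, and the sign differed for 4 of the 694, with limma on log2(TPM + 1). The alternatives share libraries with the fit that chose the genes, so a kept sign is no support for them. Of the 8 genes named by smallest p, all were called in each alternative in which they were tested.

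**Figure D5:**
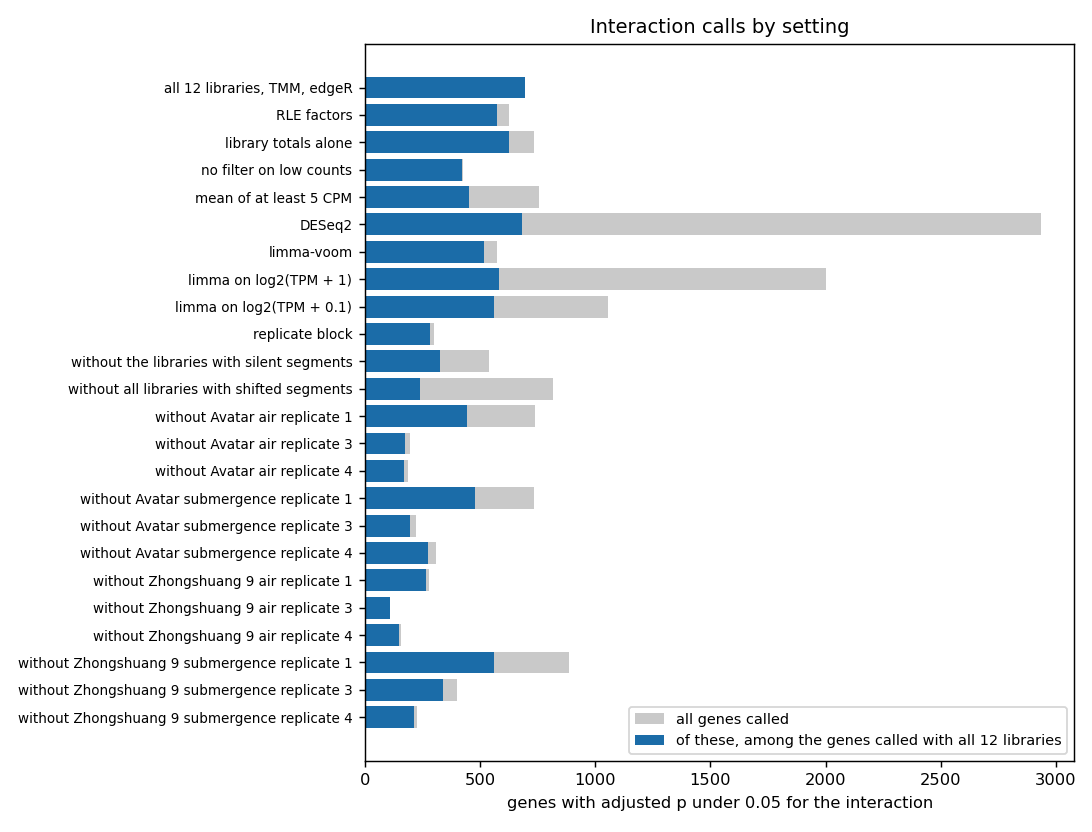
Bars give the genes called for the difference of the responses under each setting (grey, whole bar) and how many of them are among the 694 called with all 12 libraries, TMM factors and edgeR (blue). With Zhongshuang 9 air replicate 3 left out 109 genes were called, 108 of them among the 694, whereas DESeq2 called 2934, of which 683 are among the 694.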

How the data were processed

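Per the file headers, the deposited columns are those kallisto writes: estimated counts and TPM per coding sequence, 1 file a library. The tools listed, per the submitters' processing notes, are kallisto, edgeR and limma, with no version. Build, annotation and strand setting were not given in the sources used. Of the deposited estimated counts, 36.4% over all targets and libraries, zeros included, were not exactly whole. Reads that fit several targets are divided by kallisto; 92.4% of the called genes and 86.2% of the tested genes had such a count in some library, so near-identical copies are uncertain individually. A count of 0 allows up to 3 counts, 0.0836 to 0.123 CPM, for counting error only.

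Estimated counts were rounded, filtered by filterByExpr, scaled by TMM (edgeR 4.0.16, R 4.3.3) and fitted over all 12 libraries with a mean for each of 4 groups. edgeR's quasi-likelihood F test gave the interaction and the 4 single contrasts, each adjusted by Benjamini-Hochberg over 55674 genes, with a threshold of 0.05. Each standard error is the fold change over the root of F. Shifted stretches were sought in 749 blocks of about 40 genes, after the median of each gene within its treatment was subtracted. A stretch was adjacent blocks with a median log2 shift of at least 0.6, in 1 direction, from the median of the cultivar's libraries. A single block needed a shift of at least 2. Alternatives included DESeq2 1.42.0 and limma 3.58.1, the latter also on log2 TPM with 1 or 0.1 added. The fits were tested on simulated data. No 2 libraries of a group agreed within sampling noise (lowest chi-square per gene 5.06).

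The genes named are, per kind and direction, the one of smallest p whose highest group reached 5 CPM; others are marked as chosen after their values were seen. The members, lists and rules were chosen with earlier results of these data known. Lists by product name could not be applied: 3347 of 101040 identifiers matched the RefSeq table, which holds no product names.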

Additional observations from a re-analysis of the deposited data

Results flagged for a closer look

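The genes listed here were chosen from those that passed the direct test of the interaction, so passing it adds no support. Listed for each is the difference of its response between the cultivars. On the log2 scale (Zhongshuang 9 minus Avatar) it was 5.91 for BnaCnng28130D, -2.71 for BnaC03g21170D, 2.29 for BnaC01g41850D, -2.69 for BnaCnng48230D, 2.37 for BnaC07g34180D, -2.80 for BnaA08g25120D, 2.02 for BnaC01g19760D and -2.99 for BnaA01g30410D. It was 1.17 for BnaUnng04590D, -1.81 for BnaC03g60170D, 5.23 for BnaA03g04190D, 2.41 for BnaA03g04200D and -6.72 for BnaC09g05580D. The last rests on a group without counts, so its size is set by the fit. BnaC09g05580D lost its call in 17 of 22 alternatives and BnaA03g04190D in 13 of 22. Of 23 alternatives, the call was lost in 13 for BnaA03g04200D, in 9 for BnaUnng04590D and in 1 for BnaC03g60170D. The other genes listed kept theirs in each alternative in which they were tested.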

How the results depend on the processing

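The 694 calls became 425 with no filter on low counts, 2934 with DESeq2, 2001 with limma on log2(TPM + 1), 1055 on log2(TPM + 0.1), 75 at an adjusted p of 0.01 and 1714 at 0.1 (the last chosen after seeing the data). They were 109 to 887 with 1 library left out. Replicate numbers 1, 3 and 4 recur in every group, but the labels do not say that they mark anything shared, and deviations of same-numbered libraries correlated by -0.156 to 0.119; 4 of 12 libraries correlated best with their own number. With the number as a replicate block, 300 genes were called, with 47.0% of different amount, 18.0% of opposite sign and 35.0% in 1 cultivar.

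Positive differences (35.2%) were 47.5% with RLE factors, 26.6% with library totals, 51.7% with DESeq2, 40% with log2(TPM + 1), 40.1% without all libraries with shifted stretches and 34.4% to 50.7% with 1 library left out. Different amounts (42.5%) were 38.4% with totals, 52.2% at a mean of at least 5 CPM, 35.6% and 32.8% with TPM plus 1 or 0.1, 34.6% without the shifted libraries, 36% at 0.01 and 35.1% to 46.4% with 1 library left out. Opposite signs (13.8%) were 16.9% with totals, 10.3% at 5 CPM, 5.76% with DESeq2, 7.25% with log2(TPM + 1), 17.3% without the silent and 18.2% without the shifted libraries, 26.7% at 0.01, 7.47% at 0.1 and 13.4% to 26.0% with 1 left out. Responses in 1 cultivar (43.7%) were 37.5% at 5 CPM, 53.0% with DESeq2, 57.2% and 55.5% with TPM plus 1 or 0.1, 37.3% at 0.01, 52.0% at 0.1 and 36.2% to 47.0% with 1 left out. The larger response in Zhongshuang 9 (76.7%) was 71.1% with totals, 68.5% with DESeq2, 60.2% and 62.9% with TPM, 67.7% without the silent and 51.3% without the shifted libraries, 72.0% at 0.01, 72.1% at 0.1 and 57.9% to 81.2% with 1 left out. A difference under submergence alone (56.9%) was 51.1% and 51.3% with TPM, 49.1% and 47.5% without the silent or shifted libraries, 40% at 0.01, 60.6% at 0.1 and 47.1% to 60.0% with 1 left out. The cause of these shifts was not tested. None of the 13 genes listed above with their differences changed sign in these alternatives. The standard error was larger for weakly expressed genes, with a median of 0.91 under 1 CPM. The part of sequencing depth in this was not tested.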
